A study of Mus musculus with 9 samples.

Results

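Translation initiation factor genes were followed on microarrays of dorsal root ganglia (DRG) after sciatic nerve transection. A gene was taken as a member when the array files gave one of its probes a name starting with Eif, with the eIF2 kinases Eif2ak1 to Eif2ak4 left out. This rule found 111 probes of 47 genes, out of 27666 genes on the array, and 46 of the 47 had signal above background in the DRG channel on at least 4 of the 9 arrays. The brightest probe stood for each gene. Of the 47 genes, 4 are not initiation factors by their current names: the probes named Eif2c1 to Eif2c4 belong to the Argonaute genes Ago1 to Ago4, whose proteins bind small RNAs, and they are given apart. The remaining 43 are 42 tested genes and Eif2s3y, which was above background on 3 arrays.

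The samples were total RNA of L3/L4 DRG from adult mice labelled cre.neg and jun.wt throughout, so injured and control ganglia shared the same genotype label. There were 4 uninjured and 5 injured samples, the latter taken 3 days after sciatic nerve transection by the labels, while the results text of the study gives 24 hr. The labels name no animals, strain or exact age, and p-values measure the spread between these samples. On each array the DRG sample carried Cy5 and a universal mouse reference RNA carried Cy3, with no dye swap, so each value is a log2 ratio of DRG over reference RNA and is compared between arrays for 1 probe at a time.

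Initiation of translation joins a small ribosomal subunit to the start codon of an mRNA. The factor eIF2 carries the initiator tRNA and is recharged by its exchange factor eIF2B. The eIF4F complex, made of the cap-binding eIF4E, the scaffold eIF4G and the helicase eIF4A, brings the mRNA, and the 4E-binding proteins hold eIF4E back. eIF3 bridges mRNA and ribosome, eIF1 and eIF1A watch over start codon choice, and eIF5 and eIF5B complete the joining of subunits. In injured neurons, phosphorylation of eIF2 by stress kinases and mTORC1 signalling to the 4E-binding proteins are known to act on these steps.

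Facts of the arrays touch each result. The median Cy5 signal lay between 156 and 238 across the arrays, and between 71.0% and 78.9% of spots were above background, lowest in both on injured 5. Slide 1 held injured 1, 2 and 5 with uninjured 1, slide 2 held injured 3 and 4, and slide 3 held uninjured 2, 3 and 4. A fit that holds slide as a fixed block, hereafter the slide block, therefore rests on slide 1, where uninjured 1 is the lone control. On injured 2, spots with flags for non-uniform signal reached −9047 below local background in Cy5, and all such spots were left out here. As a check of the labels, 6 injury genes were listed, with earlier results of these data known. All 6, among them Atf3 and Gal, rose, by a median of 3.37 on the log2 scale. Of 12 sensory neuron markers 11 were tested, and their median uninjured log2 ratio over the reference was 4.58. The same median was 4.71 for Schwann cell, 4.08 for red blood cell and 3.75 for satellite glia markers. It was −0.0065 for macrophage, −0.075 for muscle and −4.81 for dividing cell markers. The median log2 fold change of the sensory neuron markers was −0.0079.

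Across the 20895 genes tested, the moderated test of limma called 5305 (25.4%) at an adjusted p under 0.05, 2397 (11.5%) higher and 2908 (13.9%) lower in injured DRG. Among the 46 members tested, 14 were higher, 5 lower and 27 did not pass the threshold. Without the Argonautes the counts were 13 higher and 3 lower of 42. The median log2 fold change of the 46 members was 0.10, against 0.0018 for all genes. In 17 members every injured array lay above every uninjured array, against 10.9% of all genes, and in 5 every injured array lay below, against 13.1%. Under the slide block 5.61% of all genes and 5 members remained past the threshold: Eif4ebp1, Eif4e, Eif4e2 and Eif3b higher, and Ago4 lower. For the called members taken alone, exact permutation of the arrays (two-sided, 126 splits) gave p between 0.00794, the smallest it allows, and 0.0317 for Eif2a. These members were chosen by their call on the same arrays, so small values were likely here and give no separate support. Median centring instead of loess left 4 members higher and 2 lower, beside 4.66% and 7.98% of all genes. In whole ganglia, fewer cells of a type and less RNA per cell cannot be told apart.

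**Figure D1:**
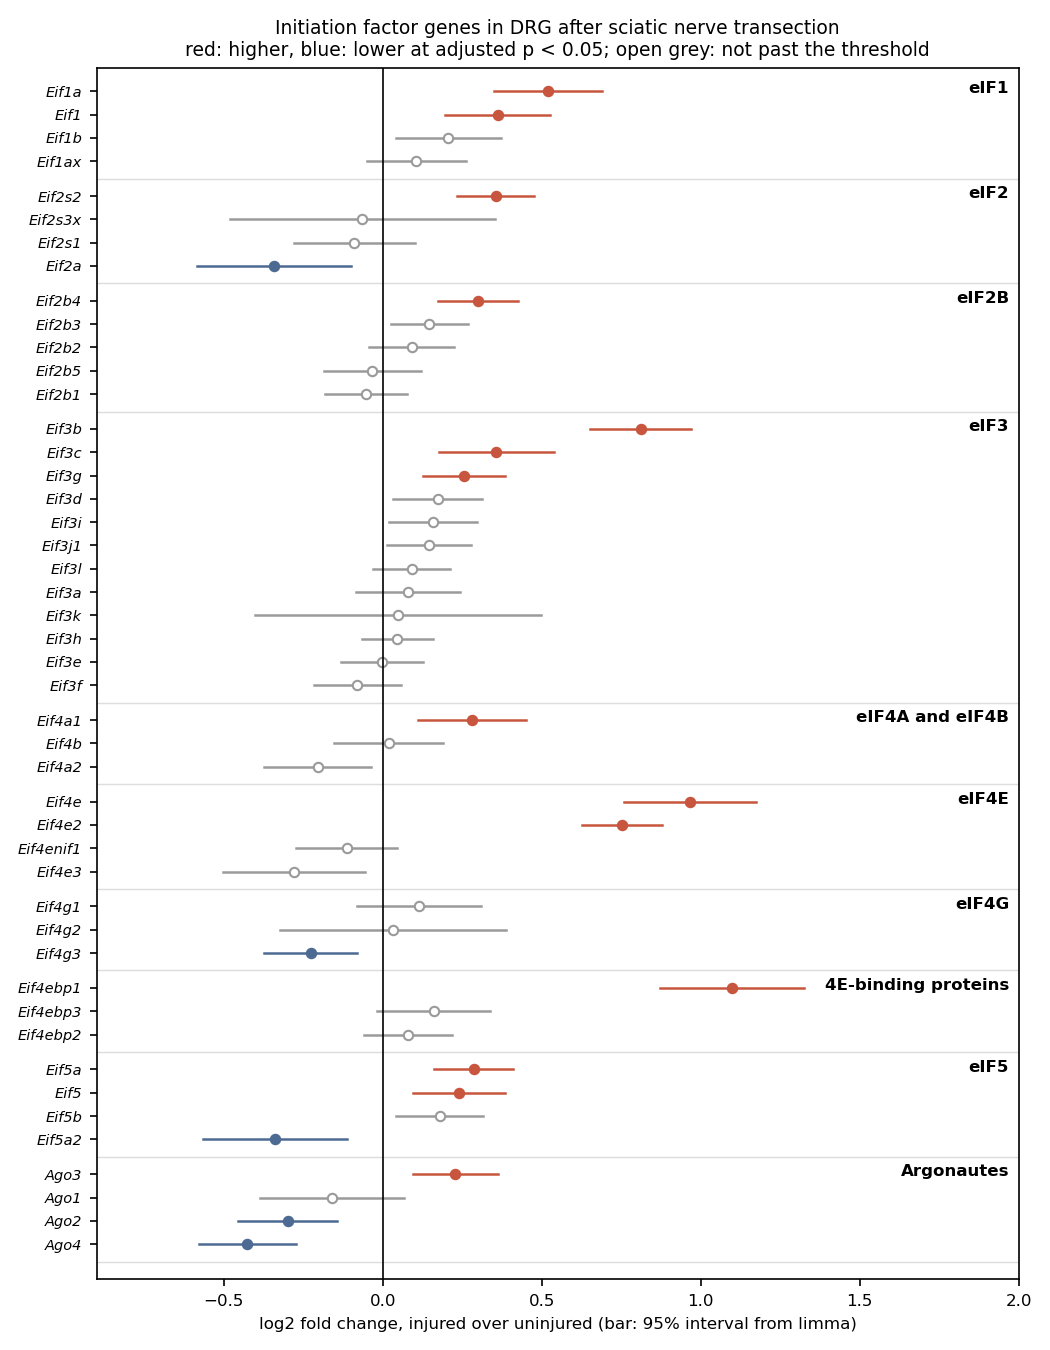
Log2 fold change of injured over uninjured DRG for the 46 members tested (points), with the 95% interval from limma (bars), grouped by factor. Eif4ebp1, Eif4e, Eif3b and Eif4e2 stand farthest to the right, while 9 of 12 eIF3 genes and 4 of 5 eIF2B genes did not pass the threshold.

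Eif4ebp1 and Eif4e had the largest changes of all members tested. Both rose, as did the cap-binding relative Eif4e2, while Eif4ebp2, Eif4ebp3 and Eif4e3 did not pass the threshold. For Eif4ebp1, which encodes a 4E-binding protein known as a target of the transcription factor ATF4, the log2 ratio was −4.17, −4.34, −4.13 and −3.96 on uninjured 1 to 4 and −3.30, −2.93, −3.16, −2.87 and −3.01 on injured 1 to 5. The lowest injured array stood well above the highest uninjured array. This is a fold of 2.14, or 1.099 on the log2 scale (standard error, SE, of 0.102, adjusted p = 3.62e-05 by limma), and 1.09 under the slide block (adjusted p = 0.017 by limma). A second, dimmer probe of Eif4ebp1 gave a log2 fold change of 0.39, with an adjusted p of 0.00515 in limma over all probes, so the direction was shared by both probes and the size was not. The bright probe lies on chromosome 8 from 26030987 to 26031046 of mouse build mm7, and the dimmer from 26031165 to 26031224.

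The other 4E-binding proteins moved little. Eif4ebp2, whose product is known as the main 4E-binding protein of brain, had log2 ratios of 0.08, 0.23, 0.27 and 0.11 on the uninjured and 0.19, 0.35, 0.28, 0.23 and 0.21 on the injured arrays. These ranges overlap, and the log2 fold change was 0.08 (95% interval −0.06 to 0.22, adjusted p = 0.398 by limma). Eif4ebp3 had a log2 fold change of 0.16 (95% interval −0.02 to 0.34, adjusted p = 0.183 by limma), with injured 5, at −0.65, the highest array of all. The change of Eif4ebp1 exceeded that of Eif4ebp2 by 1.02 on the log2 scale, and this difference was higher on each injured than on any uninjured array (two-sided exact permutation p = 0.00794, the smallest that 126 splits of the arrays allow, adjusted p = 0.0127 over 8 pairs of related genes).

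Eif4e encodes the protein that binds the mRNA cap. Its log2 ratio was −0.08, −0.26, −0.11 and −0.24 on uninjured 1 to 4 and 0.83, 0.98, 0.77, 0.87 and 0.50 on injured 1 to 5. Injured 5 was the lowest of its group and still above all uninjured arrays. The fold was 1.95, or 0.97 on the log2 scale (SE 0.0936, adjusted p = 4.74e-05 by limma), and 0.85 under the slide block (adjusted p = 0.029 by limma). Both further probes of Eif4e were called higher, with log2 fold changes of 0.78 and 0.94.

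Eif4e2 encodes 4EHP, a cap-binding relative known to repress translation because it does not join eIF4G. Its uninjured log2 ratios were −1.26, −1.24, −1.28 and −1.24, a spread of 0.0187 (SD, n = 4), and the injured ratios were −0.44, −0.46, −0.64, −0.50 and −0.49. The groups were far apart for their spread, with a log2 fold change of 0.75 (SE 0.0565, adjusted p = 8.31e-06 by limma) that was 0.80 under the slide block (adjusted p = 0.00417 by limma). The 3 other probes of Eif4e2 that passed the filter were all called higher, between 0.37 and 0.59.

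Eif4e3, the third cap-binding relative, did not rise. Its log2 ratio was 2.65, 2.32, 2.54 and 2.68 on the uninjured and 2.20, 2.21, 2.44, 2.43 and 2.06 on the injured arrays, and uninjured 2 fell within the injured range. The log2 fold change was −0.28 (adjusted p = 0.066 by limma). The change of Eif4e exceeded that of Eif4e3 by 1.25 (two-sided exact permutation p = 0.00794, adjusted p = 0.0127), while it exceeded that of Eif4e2 by 0.21, a difference that did not pass the threshold (exact permutation, adjusted p = 0.0998). Eif4enif1, the gene of the eIF4E transporter that carries eIF4E into the nucleus, was at −0.11 (95% interval −0.27 to 0.05, adjusted p = 0.288 by limma).

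**Figure D2:**
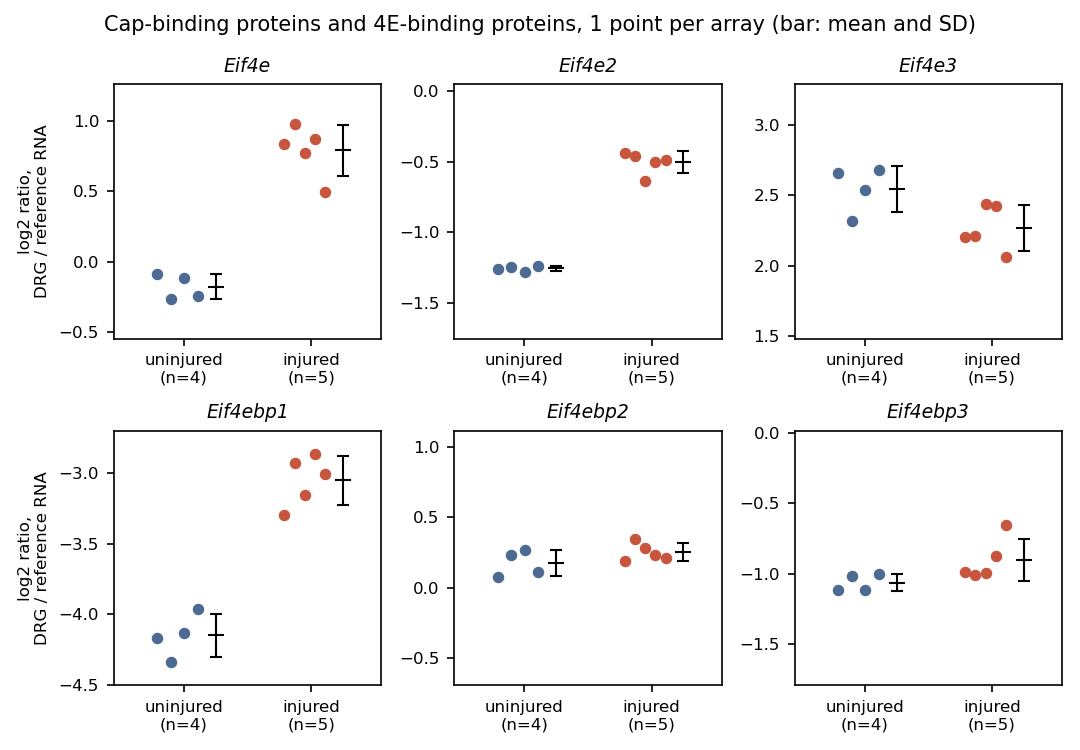
Log2 ratio of DRG over reference RNA for the cap-binding genes (top) and the 4E-binding protein genes (bottom), 1 point per array, with mean and SD of each group and the same span on each vertical axis. The injured arrays lie wholly above the uninjured for Eif4e, Eif4e2 and Eif4ebp1, and the groups overlap for Eif4e3, Eif4ebp2 and Eif4ebp3.

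Promoters were read for these genes where RefSeq sequence was at hand, over the 250 bases before the start. The letters CACGTG, the E-box that factors such as MYC and USF are known to bind and that reads the same on both strands, were found in 8 of the 36 members with a sequence, and in 6.86% of 27025 genes. Of these 8 members, 3 were called higher (Eif4a1, Eif4e and Eif5a), 1 lower (Eif5a2) and 4 did not pass. TGATGNAA, searched on both strands as the core of the element that ATF4 is known to bind, was found in 1 member, Eif2s3x, and in 3.91% of genes. Promoters of Eif4ebp1 and Eif4e3 were not used here. The stretches of Eif4e, which rose, of Eif4a1, which also rose, and of Eif5a2, which fell, are shown 5′ to 3′ with CACGTG in capitals, from build GRCm38.p6 at chr3:138527018-138527267 on the plus strand, chr11:69672424-69672673 on the minus strand and chr3:28781027-28781276 on the plus strand.
Eif4e: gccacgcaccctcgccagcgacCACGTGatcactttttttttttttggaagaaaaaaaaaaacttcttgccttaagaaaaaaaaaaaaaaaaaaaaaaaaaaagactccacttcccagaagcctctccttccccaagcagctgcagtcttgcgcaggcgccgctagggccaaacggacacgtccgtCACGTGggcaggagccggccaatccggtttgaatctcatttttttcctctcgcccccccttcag
Eif4a1: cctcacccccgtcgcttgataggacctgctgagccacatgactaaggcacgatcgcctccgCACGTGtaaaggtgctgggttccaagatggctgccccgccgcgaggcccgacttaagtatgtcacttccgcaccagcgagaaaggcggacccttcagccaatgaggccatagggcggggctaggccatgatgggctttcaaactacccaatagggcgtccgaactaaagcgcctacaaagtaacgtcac
Eif5a2: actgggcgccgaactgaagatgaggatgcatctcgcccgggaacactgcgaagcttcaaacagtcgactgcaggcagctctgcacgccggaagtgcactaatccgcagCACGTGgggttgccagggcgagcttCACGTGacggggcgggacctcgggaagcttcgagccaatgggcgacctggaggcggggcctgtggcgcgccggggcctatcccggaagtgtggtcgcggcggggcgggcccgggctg
In Eif4e the motifs start 228 and 64 bases before the start site, in Eif5a2 142 and 117 bases before it, and in Eif4a1 189 bases before it. Of the genes shown, Eif4a1 kept its call under 17 and Eif5a2 under 13 of 24 alternatives. A link between the motif and the changes was not tested.

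The scaffold and helicase genes of eIF4F changed less, and in both directions. Eif4a1, the helicase, had log2 ratios of −1.01, −1.15, −1.14 and −0.99 on the uninjured and −0.76, −0.62, −0.83, −0.98 and −0.79 on the injured arrays. Injured 4 was only just above the highest uninjured array. The log2 fold change of Eif4a1 was 0.28 (SE 0.0772, adjusted p = 0.0223 by limma). It did not pass without uninjured 2 or uninjured 3, and its other probes gave 0.03 and 0.14. Eif4a2, the form of the helicase known from brain, had a log2 fold change of −0.20 (adjusted p = 0.0744 by limma), with injured 4 and 5 lowest at 0.69 and 0.70. Eif4a1 changed by 0.49 more than Eif4a2 (two-sided exact permutation p = 0.00794, adjusted p = 0.0127), so the pair diverged although the fall of Eif4a2 alone did not pass. Eif4b, a cofactor of the helicase, was at 0.02 (95% interval −0.15 to 0.19).

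Eif4g3, which encodes an eIF4G scaffold, had log2 ratios of 1.53, 1.44, 1.51 and 1.53 on the uninjured and 1.405, 1.29, 1.34, 1.23 and 1.12 on the injured arrays. Every injured array was below every uninjured array, although injured 1 came close to uninjured 2. The log2 fold change of Eif4g3 was −0.23 (SE 0.066, adjusted p = 0.0289 by limma), and it passed neither under the slide block (−0.26, adjusted p = 0.294 by limma) nor without injured 2, injured 4, uninjured 1, uninjured 3 or uninjured 4. Eif4g1, the main scaffold, was at 0.11 (95% interval −0.08 to 0.31), and the difference between the changes of Eif4g1 and Eif4g3, 0.34, did not pass (exact permutation, adjusted p = 0.0635). Eif4g2, whose product lacks the eIF4E site, was at 0.03 with a wide spread, from −0.91 on injured 5 to −0.10 on injured 2.

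Of the genes of eIF2, the carrier of the initiator tRNA, the beta subunit rose and the alpha subunit did not pass. Eif2s2, the beta subunit, had log2 ratios of −1.04, −1.04, −0.98 and −1.04 on the uninjured and −0.60, −0.60, −0.74, −0.68 and −0.72 on the injured arrays. All injured arrays were above all uninjured arrays, and the log2 fold change was 0.36 (SE 0.0545, adjusted p = 0.000926 by limma). Under the slide block the value of Eif2s2 was 0.40 and did not pass (adjusted p = 0.0642 by limma). Eif2s1, the alpha subunit that the eIF2 kinases phosphorylate, was at −0.09 (95% interval −0.28 to 0.10, adjusted p = 0.497 by limma), with injured 5 lowest at −1.35. Eif2a, which despite its name encodes a separate factor that can bring initiator tRNA on its own, had log2 ratios of −0.86, −0.995, −0.83 and −1.01 on the uninjured and −1.06, −1.06, −1.21, −1.45 and −1.56 on the injured arrays. The groups did not overlap by a small margin, and the log2 fold change of −0.34 (SE 0.109, adjusted p = 0.0432 by limma) was past the threshold on injured arrays that differed widely among themselves. The call of Eif2a was lost when any array other than injured 1 or 2 was left out, and its second probe gave 0.11.

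The gamma subunit of eIF2 has a copy on the X and a copy on the Y chromosome, and in both groups some arrays differed from the rest in them. Eif2s3y was above background on uninjured 2, injured 2 and injured 3, at log2 ratios of 1.47, 1.54 and 1.66, and not above background on the others, at −3.36 to −2.92. On the same 3 arrays Xist, the RNA that silences an X chromosome in female cells, was between −5.95 and −5.80, against 0.75 to 1.44 elsewhere. Eif2s3x, the X-linked copy, was −1.06, −0.91 and −0.88 on these 3 arrays and −0.37 to −0.29 on the others. The labels give no sex. The log2 fold change of Eif2s3x was −0.06 (95% interval −0.48 to 0.35, adjusted p = 0.843 by limma), and 0.03 with a term for the arrays of low Xist, an alternative added after these values were seen. With that term 15 members were higher and 4 lower, beside 10.7% and 12.8% of all genes.

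**Figure D3:**
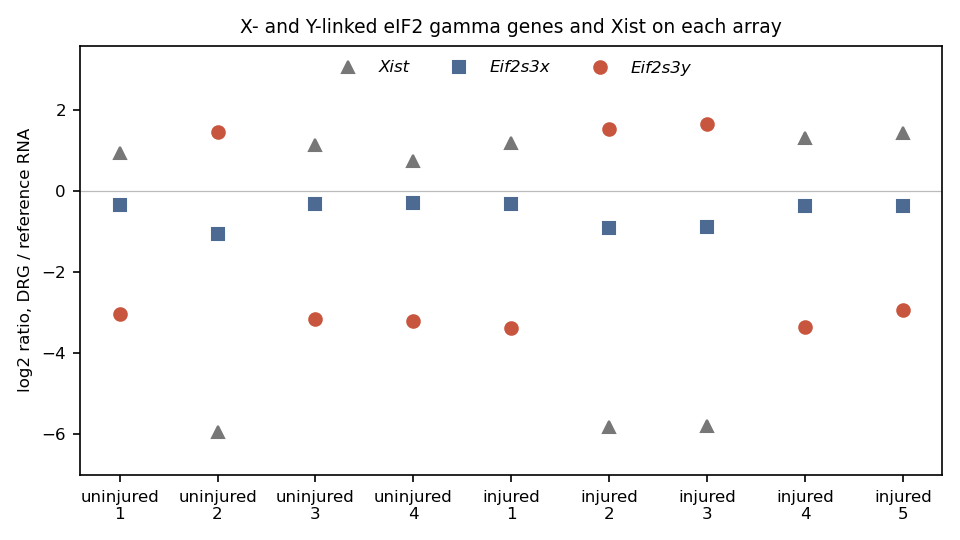
Log2 ratio of DRG over reference RNA for Eif2s3y, Eif2s3x and Xist on each of the 9 arrays. Uninjured 2, injured 2 and injured 3 show Eif2s3y above 0 and Xist between −5.95 and −5.80, with Eif2s3x lower than on the other arrays.

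Of the 5 subunit genes of eIF2B, the exchange factor that phosphorylated eIF2 blocks, Eif2b4 alone passed the threshold. Eif2b4, the delta subunit, had log2 ratios of 0.38, 0.30, 0.36 and 0.33 on the uninjured and 0.58, 0.58, 0.61, 0.68 and 0.74 on the injured arrays. The groups were apart, with a log2 fold change of 0.30 (SE 0.0566, adjusted p = 0.00323 by limma). It did not pass under the slide block (0.25, adjusted p = 0.236 by limma). The gamma subunit Eif2b3 was at 0.15 (adjusted p = 0.0761 by limma), with its injured arrays above its uninjured arrays too. The beta subunit Eif2b2 was at 0.09 (adjusted p = 0.309 by limma), the catalytic epsilon subunit Eif2b5 at −0.03 (adjusted p = 0.774 by limma) and the alpha subunit Eif2b1 at −0.05 (adjusted p = 0.553 by limma). Whether the change of Eif2b4 differed from those of the other subunits was not tested.

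All 4 eIF1 and eIF1A genes had fold changes above 0, and 2 passed. Eif1a, an eIF1A gene, rose by 0.52 on the log2 scale (SE 0.0761, adjusted p = 0.000702 by limma), from −0.15 ± 0.083 (SD, n = 4) to 0.37 ± 0.127 (SD, n = 5). A second probe of Eif1a gave 0.52 as well, and one more, which the files place on another chromosome, 12, gave 0.34 and was not called (adjusted p = 0.165 by limma over all probes). The X-linked Eif1ax, listed as Eif1ay in the files, was at 0.10 (adjusted p = 0.317 by limma), and Eif1a changed by 0.41 more (two-sided exact permutation p = 0.00794, adjusted p = 0.0127). Eif1 rose by 0.36 (SE 0.0747, adjusted p = 0.0053 by limma), with −0.81, −1.07, −0.86 and −0.82 on the uninjured and −0.65, −0.45, −0.51, −0.43 and −0.61 on the injured arrays. A dimmer probe of Eif1, which the files place on chromosome 1 and not 11, gave 0.22. Its relative Eif1b was at 0.21 (adjusted p = 0.067 by limma), a change that did not differ past the threshold from that of Eif1 (0.16, exact permutation, adjusted p = 0.135).

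Of the 12 eIF3 subunit genes 3 were called higher, and Eif3b had the largest rise. Whether its change differed from those of the other subunits was not tested. Eif3b, a core scaffold subunit listed as Eif3s9, had log2 ratios of −0.97, −0.88, −1.09 and −1.03 on the uninjured and −0.20, −0.12, −0.36, −0.13 and −0.09 on the injured arrays. Its injured arrays were all well above, with a fold of 1.75, or 0.81 on the log2 scale (SE 0.072, adjusted p = 2.69e-05 by limma), and 0.83 under the slide block (adjusted p = 0.0104 by limma). A second probe of Eif3b gave 0.60. Eif3c, another core subunit, rose by 0.36 (SE 0.0816, adjusted p = 0.00913 by limma), and Eif3g, an RNA-binding subunit, by 0.26 (SE 0.0583, adjusted p = 0.00891 by limma). Neither passed under the slide block. Of the 4 other probes of Eif3c, 1 was called higher.

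The other 9 eIF3 genes ranged from −0.08 for Eif3f to 0.17 for Eif3d, and the median of all 12 was 0.12. Eif3f had −1.03, −0.95, −1.01 and −1.13 on the uninjured and −1.13, −1.15, −1.21, −1.04 and −1.03 on the injured arrays, which overlap (adjusted p = 0.387 by limma). Eif3a, the largest subunit, was at 0.08 (95% interval −0.09 to 0.24). The widest spread was that of Eif3k, from −0.44 to 0.50 on the injured arrays.

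**Figure D4:**
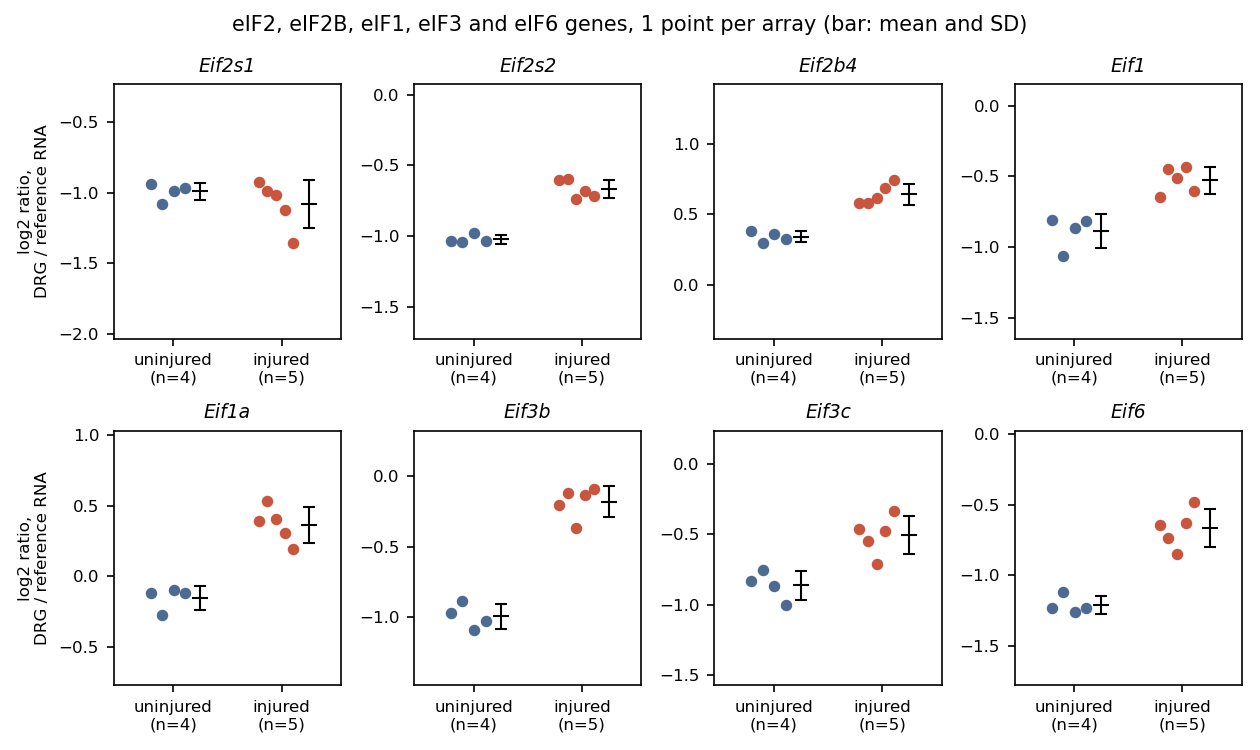
Log2 ratio of DRG over reference RNA for genes of eIF2, eIF2B, eIF1, eIF1A, eIF3 and eIF6, 1 point per array, with mean and SD of each group and the same span on each vertical axis. The groups are apart in all panels but that of Eif2s1, and Eif3b shows the largest step.

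Of the 4 eIF5 genes, 3 passed, in opposite directions within 1 pair. Eif5, which encodes the GTPase-activating partner of eIF2, had log2 ratios of 1.21, 1.12, 1.29 and 1.31 on the uninjured and 1.59, 1.47, 1.45, 1.49 and 1.36 on the injured arrays, a log2 fold change of 0.24 (SE 0.0648, adjusted p = 0.0207 by limma). Injured 5 was closest to the uninjured arrays. The call of Eif5 was lost without uninjured 1 or uninjured 2. Eif5b, the GTPase of subunit joining, was at 0.18 (adjusted p = 0.0575 by limma).

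Eif5a, the hypusine-bearing factor now known mainly for elongation, rose, and its relative Eif5a2 fell. Eif5a had log2 ratios of −0.64, −0.59, −0.71 and −0.68 on the uninjured and −0.41, −0.30, −0.46, −0.32 and −0.36 on the injured arrays, a log2 fold change of 0.29 (SE 0.0562, adjusted p = 0.00401 by limma). Eif5a2 had 4.59, 4.35, 4.34 and 4.80 on the uninjured and 4.05, 4.16, 4.21, 4.14 and 4.34 on the injured arrays. Injured 5 almost met uninjured 3. The log2 fold change of Eif5a2 was −0.34 (SE 0.102, adjusted p = 0.0335 by limma), lost without injured 1, 2, 3 or 4 or uninjured 1 or 4, and its second probe gave −0.26. The changes of Eif5a and Eif5a2 differed by 0.62 (two-sided exact permutation p = 0.00794, adjusted p = 0.0127).

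Of the 8 pairs of related genes compared, 5 passed. Each of these 5 pairs holds a gene that was also called by itself. Among all single genes, 23.9% had groups that did not overlap, and the share of other gene pairs that would pass was not tested. Within slide 1 alone the difference was 0.92 for Eif4ebp1 and Eif4ebp2, 1.35 for Eif4e and Eif4e3, 0.69 for Eif5a and Eif5a2, 0.45 for Eif1a and Eif1ax and 0.36 for Eif4a1 and Eif4a2. A ninth pair, Eif2s3x and Eif2s3y, was not run because Eif2s3y did not pass the filter. Signal shared between the probes of near relatives was not tested.

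**Figure D5:**
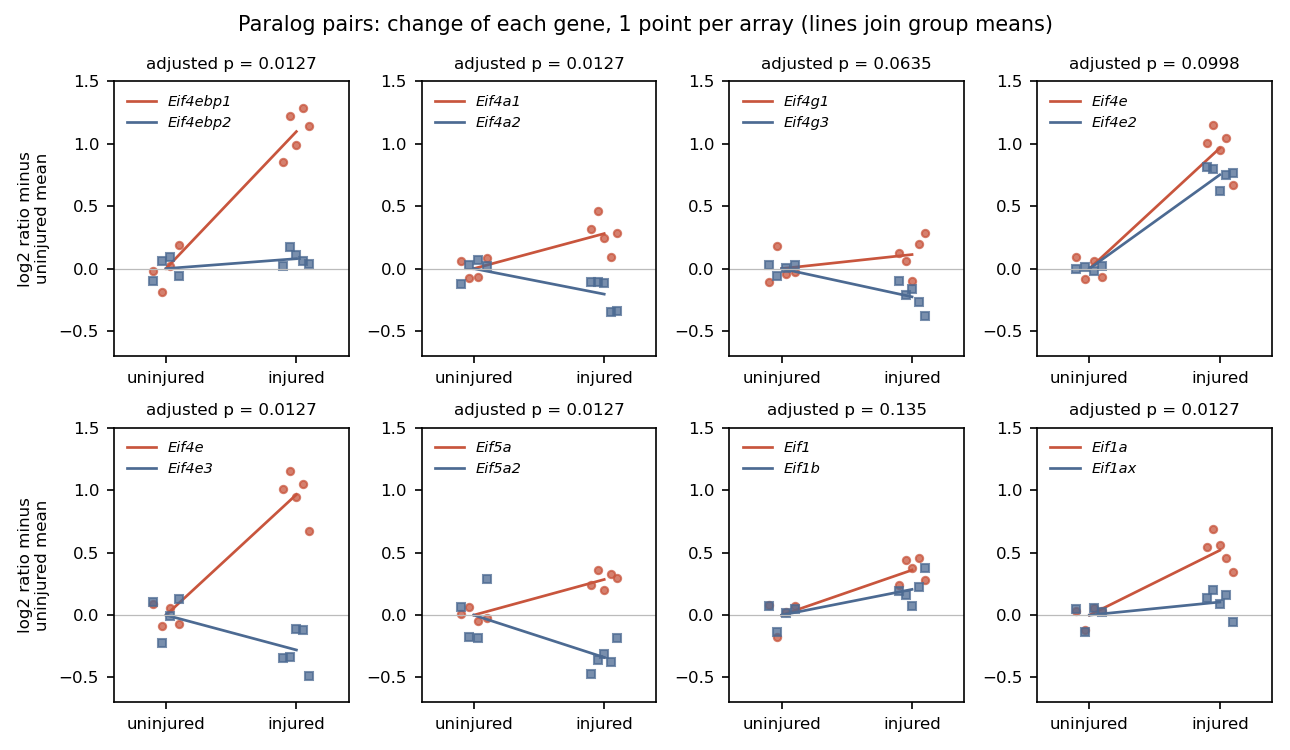
Log2 ratio minus the gene's own uninjured mean, 1 point per array, for both genes of each of 8 pairs, with lines between the group means. The lines part most for Eif4e and Eif4e3 and for Eif4ebp1 and Eif4ebp2, and run close together for Eif1 and Eif1b.

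The genes were also set beside their level in uninjured DRG relative to the reference RNA. Of the 42 members without Argonautes, 10 had an uninjured log2 ratio above 0, of which 2 were called higher and 2 lower, and 32 had a ratio below 0, of which 11 were called higher and 1 lower. Of all genes above 0, 7.57% were called higher and 20.9% lower, and of those below 0, 16.2% and 5.39%. The members with the highest uninjured log2 ratios were Eif5a2 at 4.52, Eif1b at 2.68, Eif4e3 at 2.55, Eif4g3 at 1.502 and Eif5 at 1.23, of which Eif5a2 and Eif4g3 were called lower and Eif5 higher. Since the uninjured arrays enter both the ratio and the change, no test was made.

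Argonautes formed no initiation factor group but met the naming rule. Ago4 fell by 0.43 on the log2 scale (SE 0.0687, adjusted p = 0.00126 by limma) and Ago2 by 0.30 (SE 0.0699, adjusted p = 0.0101 by limma), while Ago3 rose by 0.23 (adjusted p = 0.018 by limma) and Ago1 was at −0.16 (adjusted p = 0.29 by limma). No other probe of Ago2 or Ago3 was called, and both calls were lost under median centring and with averaged probes. Ago4 had log2 ratios of 1.51, 1.44, 1.37 and 1.31 on the uninjured and 1.03, 1.12, 0.96, 0.87 and 0.93 on the injured arrays. These groups were apart, and 3 of the 4 other probes of Ago4 were called lower while the remaining probe gave 0.02.

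Other probes of the members gave a further view. Of the 19 called members 18 had another probe above background, 13 of them had another probe called the same way, and of 35 such probes 32 had the same sign. The exceptions in sign were 1 probe each of Eif2a, Ago3 and Ago4. The same counts were not made over all called genes, so whether this agreement is particular to the members was not tested.

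Initiation factors that the files list under other names fall outside the rule. Eif6, listed as Itgb4bp and known to keep the large ribosomal subunit from joining too early, rose by 0.54 on the log2 scale (SE 0.0762, adjusted p = 0.000522 by limma), and by 0.61 under the slide block (adjusted p = 0.0416 by limma). Its log2 ratios were −1.23, −1.12, −1.26 and −1.23 on the uninjured and −0.64, −0.73, −0.85, −0.63 and −0.48 on the injured arrays, which do not overlap. Eif4h, listed as Wbscr1, was 0.21 higher (adjusted p = 0.0132 by limma) and did not pass under the slide block (0.22, adjusted p = 0.264 by limma). Eif4a3, Eif3m and Eif2d were at −0.08, −0.10 and −0.09 and did not pass.

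Genes around the factors were counted from lists chosen with earlier results of these data known, beside the background of 11.5% higher and 13.9% lower. Of 15 further initiation factors and regulators, 3 were higher and 2 lower, with Eif6 at the top and Pdcd4, the gene of an inhibitor of the eIF4A helicase, at the bottom (−0.75, adjusted p = 0.000384 by limma). Of 11 genes of eIF2 kinases, phosphatases and their targets, 3 were higher and the other 8 did not pass. The highest was Ppp1r15a, the stress-induced phosphatase subunit (1.11, adjusted p = 3.62e-05 by limma). All 3, Ppp1r15a, Ddit3 and Atf4, were already reported by the study as upregulated on its arrays. The lowest called of that list was Atf4, at 0.58 (adjusted p = 0.000219 by limma), and none of the 4 kinase genes passed. Among the kinases, Eif2ak3, the gene of PERK, was at 0.27 (adjusted p = 0.129 by limma). The study reports Eif2ak3 as upregulated on its arrays and by qRT-PCR of DRG after nerve crush. Under the slide block Atf4 was at 0.51 and did not pass (adjusted p = 0.0694 by limma). Of 17 genes of mTORC1 and eIF4F control, 4 were higher and 1 lower. The called genes ran from Sesn2, the gene of an inhibitor of mTORC1 (1.06, adjusted p = 3.08e-05 by limma), to Mknk1, the gene of a kinase of eIF4E (−0.24, adjusted p = 0.0444 by limma). The call of Mknk1 was lost under the slide block (−0.14, adjusted p = 0.584 by limma).

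Of 6 genes of poly(A)-binding proteins and their partners, 5 were tested, with 3 higher and the other two not past the threshold. The ends of the called genes were Pabpc1, which bridges the poly(A) tail to eIF4G (0.61, adjusted p = 0.000493 by limma), and Pabpc4 (0.30, adjusted p = 0.0049 by limma). Paip2 lay between them at 0.43 (adjusted p = 0.00277 by limma). Of 11 elongation and release factors 3 were higher and 1 lower, from Eef1b2, an exchange factor of elongation (0.74, adjusted p = 3.53e-05 by limma), to Gspt2, a release factor (−0.58, adjusted p = 0.0126 by limma). Under the slide block Pabpc4 (0.33, adjusted p = 0.153 by limma) and Gspt2 (−0.75, adjusted p = 0.147 by limma) did not pass.

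Markers of other cells differed between the arrays as well. The macrophage list, with 2 of 10 genes higher, lay between −0.42 and 0.32 relative to the uninjured mean on uninjured and between −0.02 and 1.01 on injured arrays, highest on injured 2. The muscle list, whose 6 tested genes did not pass, reached 3.56 on injured 4 and 1.78 on injured 2. The 3 red blood cell genes tested did not pass, with a range of −0.12 to 1.12 on the injured arrays, and of 6 genes of dividing cells 1 was higher. The satellite glia list had 2 of 5 genes higher, with a range of −0.11 to 0.10 on uninjured and 0.07 to 0.37 on injured arrays. Its median log2 fold change was −0.0079. The 7 Schwann cell genes did not pass. Beside these counts, 11.5% of all genes were higher and 13.9% lower. The part of these cells in the results on the members was not tested.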

How the data were processed

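L3/L4 DRG samples, 4 uninjured and 5 injured, were each hybridised against a universal reference on 2-colour Agilent arrays. The spot intensities are as deposited, the mean signal and median local background of each channel from Agilent Feature Extraction 10.5.1.1, with no normalization. Each scanner file also holds log10 ratios that Agilent's software corrected for background and dye (linear lowess) per the file headers. The series values of the authors are log2 ratios, Cy5 over Cy3, normalized within each array, for which limma is named in the submitters' processing notes, with background and normalization settings not given in the sources used here. The methods name another version of the array than the file headers.

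All steps on the intensities used limma 3.58.1 in R 4.3.3. Spots with non-uniformity flags were left out, followed by normexp (offset 50), loess per array and averaging of replicate spots. Of 41174 probes (43379 spots), 31186 were above background in Cy5 on 4 or more of the 9 arrays and were kept. The brightest probe by mean signal stood for a gene. Names were matched by accession for 23075 probes, by symbol for 6587 and by older name for 3072, while 8440 were left as named in the files. Probe coordinates are on mm7, promoter sequences from RefSeq on GRCm38.p6, where 36 of the members tested had an entry.

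Groups were compared with limma's moderated test, Benjamini-Hochberg adjusted over 20895 genes. Single values and pairs had two-sided exact permutation tests over 126 splits. The members and lists were chosen with earlier results of these data known. Named were every 4E-binding protein, eIF2 and eIF2B subunit, both ends of each factor group, called members over 0.3 on the log2 scale, pair members, and both ends of the called genes of each related list. The promoters, Eif4b, Eif4g1, Eif4g2, Eif3a, Eif3k, Eif3d, Eif4h and the genes under other names were described after their values were seen.

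Alternatives were all spots kept, no background correction, an offset of 0, Agilent's ratio, the authors' values, median centring, Cy5 alone, no or a stricter filter, other choices of probe, slide as a fixed or random block, array weights, and each array left out. Precision is limited by the number of arrays. In a test on simulated data with 200 of 20895 genes changed, this comparison recovered 93% of log2 changes of 1 and 74% of those of 0.5. Unchanged genes made up 4.02% of the calls. The simulated noise was independent between arrays, with no slide effect, and far fewer genes were changed than were called in the data. These figures therefore do not cover errors from the uneven spread of the groups over the slides. The plots used matplotlib 3.10.9 under Python 3.11.15.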

Additional observations from a re-analysis of the deposited data

Results flagged for a closer look

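Each member's group of arrays was searched for a sample far from the rest, by dividing its distance from the next sample by the whole range. Of 92 groups 8 held one, where chance gives about 1 in 20. Uninjured 2 was the lowest of its group for Eif1a at a log2 ratio of −0.28, Eif1ax at −1.40, Eif2s3x at −1.06 and Eif4g2 at −0.68. It is the uninjured array on which Xist was low. Uninjured 4 was the lowest for Eif2b2 at −0.77 and Eif3i at −0.79, uninjured 3 the highest for Eif2s2 at −0.98, and injured 4 the highest for Eif3j1 at 0.19. The part of sex, sample or array in these values was not tested.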

How the results depend on the processing

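No paired analysis was possible because no label ties a sample to an animal or gives it a replicate number. The study's methods name contralateral DRG as controls after nerve crush, and uncrushed DRG as controls for the arrays. Whether injured and uninjured samples here came from the same animals is not given. The main tests treated the arrays as independent. Of the 19 called members all kept their direction under all 24 alternatives and 5 (Eif4ebp1, Eif4e, Eif4e2, Eif3b and Ago4) also kept their call. For the changes below the cause was not tested. Over all genes 5305 were called, 2641 under median centring and 1173 with slide as a fixed block. Members called higher and lower numbered 4 and 2 under median centring, 7 and 3 with Cy5 alone and 4 and 1 with slide as a fixed block, and 3 were lower with an offset of 0, Agilent's ratio or averaged probes. With each array left out, between 12 and 16 were higher and between 2 and 5 lower, with 2 lower without injured 4, uninjured 1 or uninjured 4 and 3 without injured 2 or uninjured 3. Related genes called numbered 20, 7 under median centring and 10 with slide as a fixed block. Between 5 and 7 pairs passed under the 20 alternatives that could give a value.

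The median of members was −0.012 under median centring, 0.069 with Cy5 alone and 0.13 with slide as a fixed block, and between 0.091 and 0.13 with each array left out. Under median centring, which moved the median of all genes to −0.049, group medians were 0.14 (eIF1), −0.027 (eIF2B), 0.00040 (eIF3), 0.24 (eIF4E) and 0.097 (eIF5). With Cy5 alone they were 0.15 (eIF1), −0.0033 (eIF2B) and 0.059 (eIF3), with an offset of 0 0.22 (eIF1) and 0.080 (eIF3), with slide as a fixed block 0.21 (eIF1) and −0.15 (Argonautes), and with averaged probes −0.12 (Argonautes). With each array left out the eIF3 median lay between 0.12 and 0.16.

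Members near 0 that did not pass turned sign. Under median centring these were Eif1ax (−0.014), Eif2b2 (−0.027), Eif3a (−0.038), Eif3h (−0.11), Eif3k (−0.042), Eif3l (−0.066), Eif4b (−0.082), Eif4ebp2 (−0.010) and Eif4g2 (−0.078). With Cy5 alone they were Eif2b2 (−0.018), Eif3h (−0.14), Eif3l (−0.060) and Eif4b (−0.081). With slide as a fixed block they were Ago1 (0.0051), Eif3e (0.050) and Eif4g2 (−0.074). With averaged probes they were Eif2s3x (0.015), Eif4b (−0.026) and Eif4g2 (−0.038). Eif3h was −0.051 with an offset of 0, Eif3e 0.0053 with the authors' values and 0.018 with array weights, and with the low-Xist term, chosen after seeing the data, Eif2s3x was 0.028 and Eif3e 0.00015. With each array left out, Eif2b5 lay between −0.063 and 0.0014, Eif2s3x between −0.25 and 0.022, Eif3e between −0.024 and 0.023, Eif3k between −0.078 and 0.20, Eif4b between −0.026 and 0.075 and Eif4g2 between −0.060 and 0.17. The count over all genes then lay between 4014 and 5446.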
